A study of Mus musculus with 34 samples.

Results

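The 10 genes described here encode enzymes that remove methyl groups from lysine 9 of histone H3 (H3K9). They were chosen by name, as Kdm3a, Kdm3b and Jmjd1c of the KDM3 family, Kdm4a, Kdm4b, Kdm4c and Kdm4d of the KDM4 family, Phf2 and Kdm7a of the KDM7 family, and Kdm1a. All 10 were found by symbol among the 28706 genes of the soma table and the 27021 genes of the PGC table. What was measured is the H3K9me2 signal over these genes, that is, the mark on the genes that encode the enzymes able to remove it, and neither their RNA nor their protein.

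H3K9me2 marks repressed chromatin and is removed by enzyme classes with different chemistry. The Jumonji (JmjC) demethylases hydroxylate the methyl group with iron, oxygen and alpha-ketoglutarate, and vitamin C helps to keep their iron in the reduced, active state. KDM3 enzymes act mainly on mono- and dimethylated H3K9, most KDM4 enzymes on tri- and dimethylated H3K9, and KDM7 enzymes bind H3K4me3 through a PHD finger while acting on dimethylated lysines. Kdm1a (LSD1) is the exception, since it oxidises methyl groups with the cofactor FAD and needs no iron. PGCs, the precursors of eggs and sperm, lose much of their H3K9me2 while they reset their epigenome in the embryo.

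The mark was profiled by CUT&RUN, in which an antibody guides a nuclease that cuts out the DNA around it. Gonads came from female C57BL/6 embryos of embryonic day 13.5, all Gulo-/-, which lack the last enzyme of vitamin C synthesis, so that both groups depended on the vitamin C of the maternal diet. Vitamin C was either supplied at a physiological level or withdrawn in the first 2 weeks of gestation. Cells carrying the Oct4GFP reporter were sorted as PGCs, and the reporter-negative rest of the gonad, a mixture of cell types, as soma, with 1000 cells per library. For H3K9me2 there were 5 supplied and 5 withdrawn PGC libraries and 4 supplied and 3 withdrawn soma libraries, with the same numbers for control IgG. The labels do not say whether a library held cells of 1 embryo or of several.

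The values come from 2 tables of limma statistics, so a value for each library, a plot by library and a result without a given library cannot be shown. The tables name no antibody and are taken here as those of H3K9me2. The sign is withdrawn minus supplied, which in soma was read from the standard errors and in PGCs was assumed to be the same. The geometric mean library size had a lower bound of 1512598 reads for soma and 613601 for PGCs, and at that depth the 10 genes had from 29.6 (Kdm4a) to 197.6 (Kdm4c) reads per library in soma and from 17.6 to 61.3, for the same genes, in PGCs. The Y-linked JmjC genes Uty and Kdm5d carried 0.409 and 0.239 CPM per kb of gene in soma and 1.02 and 0.498 in PGCs, in libraries labelled female, beside 0.819 and 1.18 in soma and 0.848 and 2.31 in PGCs for their X-linked relatives Kdm6a and Kdm5c. Which libraries held the Y-linked reads, and what part this has in the results below, was not tested.

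The genomic positions are those of RefSeq on GRCm38.p6, the assembly that mm10 stands for. The sequences below are from the starts of Kdm3a, Kdm4d and Phf2. Each is the 250 bases before an annotated start, written 5′ to 3′ on the strand of the gene, with every CpG dinucleotide in capitals. Kdm3a (chr6:71632918-71633167, minus strand) is shown as the member with the lowest soma value, Kdm4d (chr9:14500483-14500732, minus strand) as the member with the most signal per length, and Phf2 (chr13:48870886-48871135, minus strand) for its density of CpG.
Kdm3a: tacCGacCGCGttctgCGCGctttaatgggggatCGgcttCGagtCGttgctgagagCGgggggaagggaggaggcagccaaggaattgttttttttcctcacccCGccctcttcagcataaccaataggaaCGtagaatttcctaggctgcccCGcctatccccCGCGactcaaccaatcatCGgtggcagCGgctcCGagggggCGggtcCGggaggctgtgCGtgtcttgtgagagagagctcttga
Kdm4d: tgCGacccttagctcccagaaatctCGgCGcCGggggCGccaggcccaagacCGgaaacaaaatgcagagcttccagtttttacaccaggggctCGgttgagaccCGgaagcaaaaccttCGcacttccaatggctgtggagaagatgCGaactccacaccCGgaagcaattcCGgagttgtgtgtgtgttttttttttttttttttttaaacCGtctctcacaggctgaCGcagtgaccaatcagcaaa
Phf2: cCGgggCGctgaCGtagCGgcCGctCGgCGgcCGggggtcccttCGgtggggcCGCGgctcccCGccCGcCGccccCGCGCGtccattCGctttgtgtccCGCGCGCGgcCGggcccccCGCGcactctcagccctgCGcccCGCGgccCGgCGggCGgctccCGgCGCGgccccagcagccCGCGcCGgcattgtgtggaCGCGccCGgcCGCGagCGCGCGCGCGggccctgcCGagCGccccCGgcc

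Kdm3a held 20 CpG in this window, Kdm4d 14 and Phf2 50, against a median of 6 and an upper quartile of 16 over 32851 windows of all genes. Another window of Kdm3a, not shown, held 31, and the Kdm4d window reaches into Cwc15, a gene 82 bp from Kdm4d. RefSeq gave 12 such windows for 8 of the 10 genes, and 10 of the 12 lay above the median of 6. The exceptions, with 0 CpG each, were an upstream start of Kdm4c and an internal start of Kdm3a. Kdm7a had the most, with 56. Kdm3a is known as a target of hypoxia-inducible factor, so the letters ACGTG and GCGTG, the core of the hypoxia response element, were searched on both strands. They were found in 4 of the 12 windows, of Kdm4c, Kdm7a, Kdm3a and Jmjd1c, and in 38.6% of the windows of all genes, and the Kdm3a window above holds 1 match. The tables give a single value per gene and none for a given start. Sequences for Kdm4b and Kdm3b are not shown.

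The first comparison asked whether withdrawal moved the mark on these genes in soma. All 10 genes rose past an adjusted p of 0.05 in the authors' deposited table, by between 0.84 (Kdm3a) and 1.36 (Kdm4b) on the log2 scale, with standard errors (SE) from 0.22 to 0.30. Over all genes 68.2% rose and 0.101% fell, and among the 8224 genes with averages between those of Kdm4a and Kdm4c, 89.8% rose. The median of the 10 genes was 1.02 and that of all genes 1.04. A count of 10 of 10 is thus close to the share of genes of like average, and the rise of these genes is that of most genes in the table. Because the scaling of the libraries is not stated, a gain of the mark across the genome and a shift from scaling cannot be told apart, nor, in the mixed soma, a change within cells and a change in which cells were present.

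**Figure D1:**
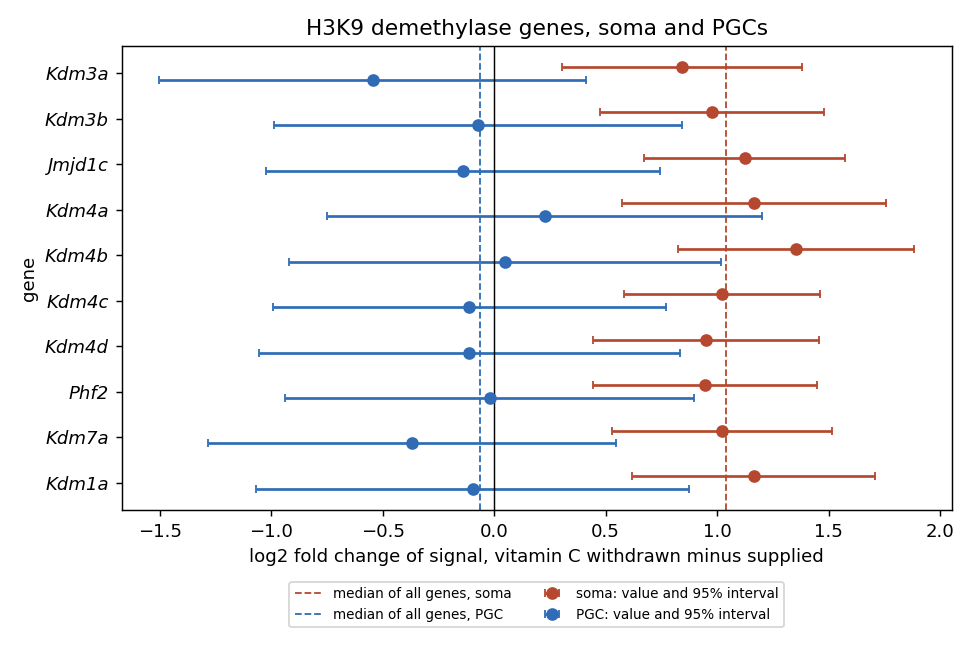
Log2 fold change of the signal over each gene, withdrawn minus supplied (x axis), for the 10 demethylase genes (y axis) in soma and in PGCs; points are the values of the authors' deposited tables, bars 95% intervals from the SE, and dashed lines the medians of all genes. All soma points lie between 0.84 and 1.36 with intervals above 0 that include the soma median of 1.04, and all PGC intervals include 0.

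Within the KDM3 family the soma values of the authors' deposited table were the lowest for Kdm3a. Kdm3a (chromosome 6, 71588970 to 71632990), an H3K9me1 and H3K9me2 demethylase needed for spermatogenesis and metabolic control in mice, rose by 0.84 ± 0.27 (SE, limma adjusted p = 0.00473), which is 1.79-fold, in the authors' deposited table, a call that it lost when p-values used just the residual degrees of freedom left by the libraries (adjusted p = 0.0626). Kdm3b (chromosome 18, 34777008 to 34839370), its close relative with the same substrates, rose by 0.98 ± 0.26 (limma adjusted p = 0.000506) in the authors' deposited table. Jmjd1c (chromosome 10, 67096351 to 67256326), a large KDM3-type protein known for its part in germ cell maintenance in mice, rose by 1.12 ± 0.23 (limma adjusted p = 1.16e-05) in the authors' deposited table. The 95% intervals of the 3 genes, from 0.31 to 1.38, from 0.48 to 1.48 and from 0.67 to 1.57, overlap one another. Reep3 overlaps the Jmjd1c locus and stood at 0.43 ± 0.25 in the authors' deposited table, so reads in the shared stretch may count towards either gene.

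The KDM4 family held both the highest soma value of the set and its most marked spread in level. Kdm4b (chromosome 17, 56325970 to 56403774), which acts on tri- and dimethylated H3K9 and is known as a hypoxia-induced gene, rose by 1.36 ± 0.27 (limma adjusted p = 7.34e-06), or 2.56-fold, in the authors' deposited table. Its neighbour 2484 bp away is Uhrf1, a reader of methylated H3K9 and DNA, which rose by 1.63 ± 0.38 (limma adjusted p = 1e-04) in the authors' deposited table. Kdm4a (chromosome 4, 118136957 to 118180090), the founding member of this family, rose by 1.17 ± 0.30 (limma adjusted p = 0.000443) in the authors' deposited table. Kdm4c (chromosome 4, 74242497 to 74405864), the longest of the 10 genes at 163 kb, rose by 1.02 ± 0.22 (limma adjusted p = 4.17e-05) in the authors' deposited table. Kdm4d (chromosome 9, 14462548 to 14500522), a shorter KDM4 protein highly expressed in testis, rose by 0.95 ± 0.26 (limma adjusted p = 0.000793) in the authors' deposited table. The start of Kdm4d lies 82 bp from Cwc15, a splicing factor gene, for which the authors' deposited table had 0.47 ± 0.49 (limma adjusted p = 0.366).

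For the KDM7 genes of the set, Phf2 and Kdm7a, the soma values were nearly equal. Phf2 (chromosome 13, 48801750 to 48870885), an H3K9me2 demethylase that binds H3K4me3, rose by 0.95 ± 0.26 (limma adjusted p = 0.000761) in the authors' deposited table. Kdm7a (chromosome 6, 39136620 to 39206773), which acts on H3K9me2 and H3K27me2, rose by 1.02 ± 0.25 (limma adjusted p = 0.000233) in the authors' deposited table. The lncRNA 4930599N23Rik overlaps Kdm7a and rose by 1.40 ± 0.34 (limma adjusted p = 0.000201) in the authors' deposited table. Kdm1a (chromosome 4, 136550533 to 136602787), the FAD-dependent member, rose by 1.16 ± 0.28 (limma adjusted p = 0.000145) in the authors' deposited table, inside the range of the 9 JmjC genes. Luzp1 overlaps the Kdm1a locus and rose by 0.50 ± 0.23 (limma adjusted p = 0.0485) in the authors' deposited table. Family medians in soma, over the genes of the set only, were 0.98 for KDM3, 1.09 for KDM4 and 0.98 for KDM7.

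Against the shift shared by most genes, no member stood apart. After the soma median of 1.04 was subtracted, 4 of the 10 genes lay above it and 6 below, from -0.20 (Kdm3a) to 0.31 (Kdm4b), and all 10 of the 95% intervals included the median. In a t test recomputed with the limma SE, none passed an adjusted p of 0.05 over all genes, the lowest being that of Kdm4b (adjusted p = 0.859). There, 0 of 10 reached an unadjusted p of 0.05, against 8.72% of all genes. Over all genes 0.0488% lay higher and 1.3% lower past the adjusted threshold. With the SE of these genes a shift of 0.76 to 1.03 away from the median was needed to pass, so smaller deviations were not detectable. By the order of log2 fold changes Kdm4b stood at percentile 79.1 of all soma genes and Kdm3a at percentile 31.0.

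**Figure D2:**
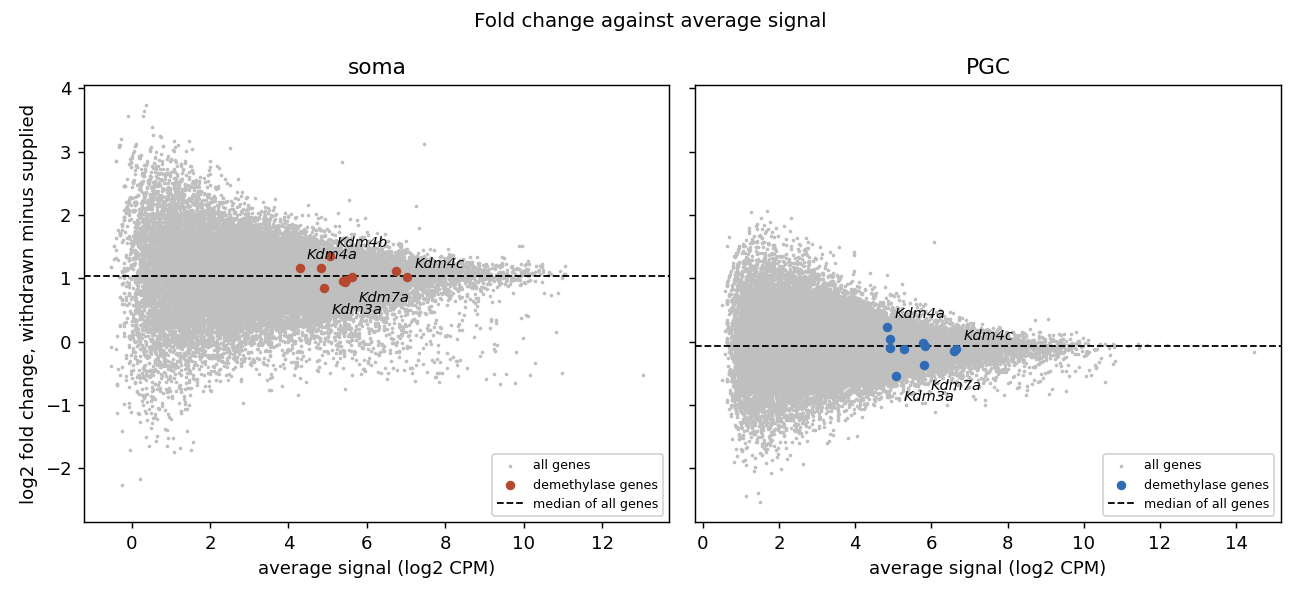
Log2 fold change, withdrawn minus supplied (y axis), against the average signal in log2 CPM (x axis) for all genes (grey) and the 10 demethylase genes (colour) in soma and PGCs, from the authors' deposited tables; the dashed line is the median of all genes. The demethylase genes have averages from 4.29 to 7.03 in soma and lie within the cloud of genes of like average in both tables.

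The calls in soma rest in part on how the spread was pooled. The deposited p-values use 143530 degrees of freedom, pooled over all genes. When the 5 residual degrees of freedom left by 7 libraries were used instead, 9 of the 10 genes passed, with adjusted p from 0.0446 to 0.0483. Kdm3a did not (t test recomputed with the limma SE, adjusted p = 0.0626). The pooled SE was kept, so this does not test a gene against its own spread between libraries. Under that setting 32.1% of all genes rose, and 61% of genes with averages in the range of the 10.

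In PGCs no member passed in either direction. The log2 fold changes in the authors' deposited table ran from -0.54 (Kdm3a) to 0.23 (Kdm4a), with SE from 0.45 to 0.50, wider than in soma. The adjusted p rounded to 1 for each gene, 0 of the 10 had an unadjusted p under 0.05, and of all 27021 genes 0% passed, with 0.984% at an unadjusted p under 0.05. The members' median was -0.10 and that of all genes -0.064.

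Among KDM3 genes in PGCs, Kdm3a stood at -0.54 ± 0.49 (p = 0.265), the smallest p of the set, Kdm3b at -0.072 ± 0.47 and Jmjd1c at -0.14 ± 0.45 in the authors' deposited table. Of the KDM4 genes, Kdm4a stood at 0.23 ± 0.50, Kdm4b at 0.050 ± 0.49, Kdm4c at -0.11 ± 0.45 and Kdm4d at -0.11 ± 0.48 in the authors' deposited table. Phf2 stood at -0.020 ± 0.47, Kdm7a at -0.37 ± 0.47 and Kdm1a at -0.096 ± 0.49 in the authors' deposited table. The signs were mixed, with 2 genes positive and 8 negative. The 95% intervals of the 10 genes reached from -1.50 at the lowest (Kdm3a) to 1.20 at the highest (Kdm4a). For 9 of the 10 the upper bound lay below 1.04, the median shift of soma, and for 6 of the 10 if the sign of the PGC contrast is turned. When only the 8 residual degrees of freedom left by 10 libraries were used it was 6 of 10. The share of all PGC genes with such a bound was not computed. The soma median was taken without error, so these counts are no test of a difference from soma.

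Relative to the PGC median, 0 of the 10 passed by an adjusted or an unadjusted p under 0.05, against 0% and 0.94% of all genes. Kdm3a, at -0.48 from the median, stood at percentile 11.1 of all PGC genes, and Kdm4a, at 0.29, at percentile 77.1. Kdm3a thus had the lowest value of the 10 in both tables, given the assumed sign of the PGC contrast. With that sign turned, its PGC value would be the highest of the 10. In neither table did Kdm3a differ from the median gene past the threshold.

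Whether the response to withdrawal differed between the cell types was tested on the difference of the log2 fold changes. All 10 genes had a higher value in soma than in PGCs, by 0.94 (Kdm4a) to 1.39 (Kdm7a), as had 95.7% of the 26721 genes in both tables. None passed over all genes, with adjusted p from 0.105 to 0.207, and neither did any other gene (0% called). At an unadjusted p under 0.05 the count was 7 of 10 for the members and 34.4% of all genes in the direction of soma. These shares are not like for like. The members' averages, from 4.29 in soma and 4.84 in PGCs, lay above the medians of all genes, 3.40 and 3.52. The share among genes of like average was not computed. The highest values were those of Kdm7a and Kdm3a. Kdm7a differed by 1.39 ± 0.53 (SE), with a 95% interval from 0.35 to 2.43, and Kdm3a by 1.39 ± 0.56, with an interval from 0.29 to 2.49. The intervals of Kdm4a, from -0.20 to 2.08, of Phf2, from -0.079 to 2.01, and of Kdm4d, from -0.0088 to 2.13, included 0. The median difference of all genes was 1.07.

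**Figure D3:**
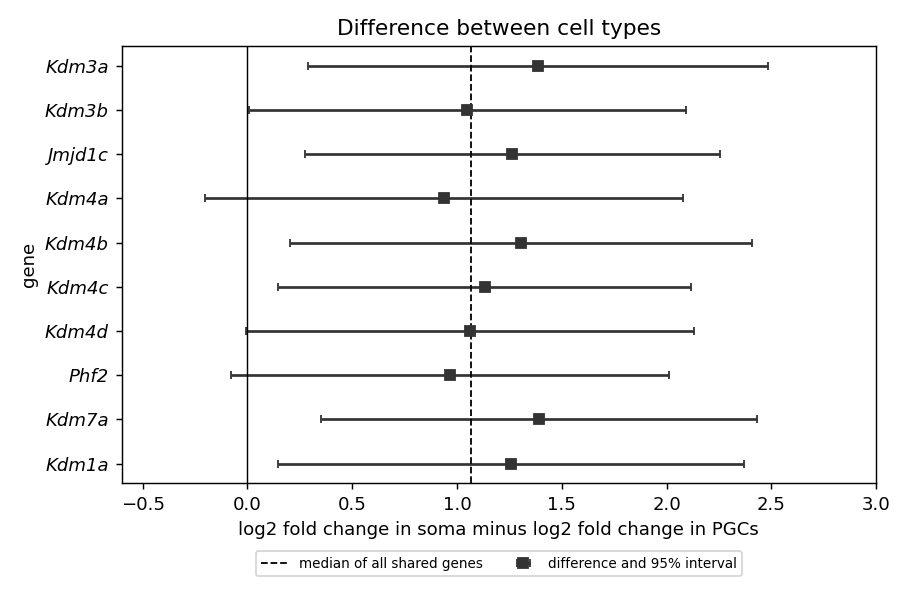
Log2 fold change in soma minus that in PGCs (x axis) for each demethylase gene (y axis), with 95% intervals from the summed squared SE; the dashed line is the median of the 26721 shared genes, 1.07. Points run from 0.94 to 1.39, and each interval includes the median.

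After each table was centred on its own median, the differences ran from -0.17 (Kdm4a) to 0.29 (Kdm7a). By an adjusted p under 0.05, 0 of the 10 and 0% of all genes passed, and at an unadjusted p under 0.05 it was 0 of the 10 and 1.95% of all genes. The intervals, such as -0.81 to 1.38 for Kdm3a, leave room for a difference in either direction. These differences assume that the soma and PGC estimates are independent and that both contrasts have the same sign.

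The level of the signal, as average CPM per kb of gene over supplied and withdrawn libraries together, differed between the members. No IgG signal was subtracted here, so the mark and background cannot be told apart in these levels. Kdm4d carried the most signal per length in both tables, at 1.10 CPM per kb in soma (percentile 93.9 of the 16953 genes of 10 kb or more) and 1.03 in PGCs (percentile 86.6). Kdm4b carried the least, at 0.425 in soma (percentile 8.79) and 0.389 in PGCs (percentile 11.3). The ratio between the 2 genes was 2.58 in soma and 2.65 in PGCs. The median of genes of 10 kb or more was 0.699 in soma and 0.642 in PGCs.

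**Figure D4:**
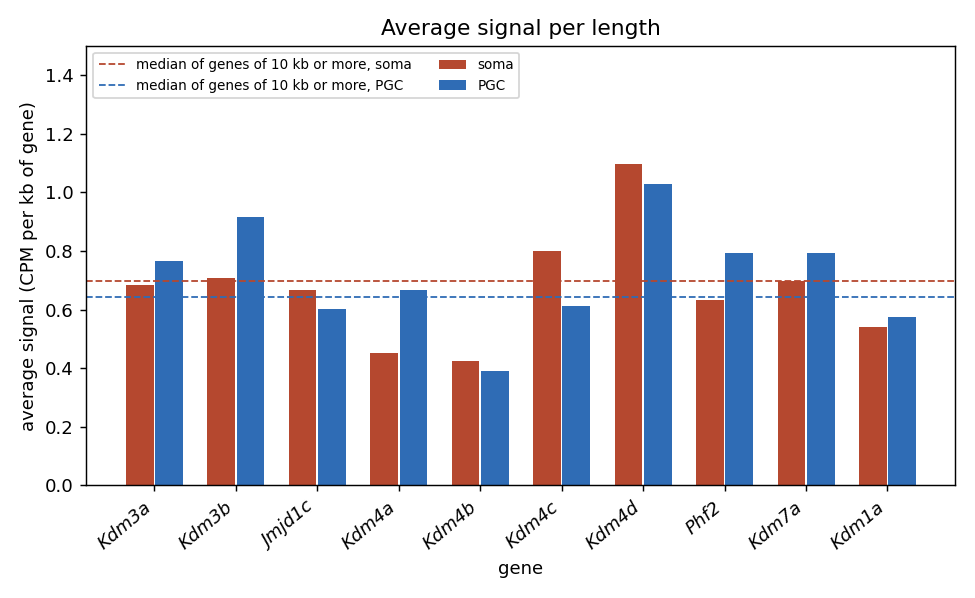
Average signal in CPM per kb of gene (y axis, from 0) for the 10 demethylase genes (x axis) in soma and PGCs; dashed lines are the medians of genes of 10 kb or more. Kdm4d is the highest and Kdm4b the lowest in both tables. Error bars are not drawn, and the estimated SE of these averages is 0.11 to 0.15 in soma and 0.22 to 0.25 in PGCs on the log2 scale.

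The order in soma after Kdm4d was Kdm4c at 0.800 CPM per kb, Kdm3b at 0.707, Kdm7a at 0.698, Kdm3a at 0.683, Jmjd1c at 0.666, Phf2 at 0.631, Kdm1a at 0.540 and Kdm4a at 0.453, with Kdm4b last. With an SE of the average of 0.11 to 0.15 (log2), estimated from the SE of the fold change, the step from Kdm4d to Kdm4c, 0.46 on the log2 scale, was the single step of 9 between neighbours in this order whose 95% interval left out 0. In PGCs the order was Kdm4d, Kdm3b at 0.917, Phf2 at 0.794, Kdm7a at 0.792, Kdm3a at 0.766, Kdm4a at 0.666, Kdm4c at 0.612, Jmjd1c at 0.603, Kdm1a at 0.573 and Kdm4b. There the interval left out 0 in 0 of the 9 steps, the largest being the 0.56 between Kdm1a and Kdm4b. The genes were ordered by these same values, and the intervals were not adjusted for that or for the 9 steps. They also take genes measured in the same libraries as independent, so the steps are a description. Kdm4a stood at percentile 10.7 in soma and 54.0 in PGCs, a difference that was not tested because the tables were scaled separately. The sources used here do not say which stretch of a gene was counted, so a level per kb of the whole gene is a description.

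The genes flanking the members were read as well. Of the 20 nearest measured genes, 1 on each side of a member, the authors' deposited table had 15 rise in soma, beside 68.2% of all genes, and their log2 fold changes ran from -0.34 to 1.94 around a median of 0.92. Next to Kdm3a, Chmp3 rose by 0.96 ± 0.28 (limma adjusted p = 0.00203), while Reep1 stood at 0.45 ± 0.22 (limma adjusted p = 0.0644) in the authors' deposited table. Both neighbours of Kdm4b rose, Ptprs by 0.73 ± 0.27 (limma adjusted p = 0.011) beside the value of Uhrf1 above, in the authors' deposited table.

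The other genes of the pathway were read from lists. Of 18 measured JmjC genes outside the set above, 12 rose and 0 fell in soma, beside 68.2% of all genes that rose. The median of the list was 0.90. The list is not limited to other lysines and substrates, since it holds Hr and Phf8, which also act on H3K9. Hr rose by 1.08 (limma adjusted p = 0.00244) in the authors' deposited table. Phf8, of the KDM7 family, rose there by 0.63 (limma adjusted p = 0.0123), less than any member of the set. With residual degrees of freedom 5 of the 18 rose, beside 32.1% of all genes and 61% of genes in that range. Hspbap1, a JmjC protein that binds a heat shock protein, had the highest value and the smallest p, rising by 1.23 ± 0.26 (limma adjusted p = 2.23e-05) in the authors' deposited table. Uty, the Y-linked relative of the H3K27 demethylase Kdm6a, had the lowest value, -0.31 ± 0.24 (limma adjusted p = 0.243) in the authors' deposited table. That is 1.35 below the median (t test recomputed with the limma SE, adjusted p = 1.44e-05 relative to it). Uty was 1 of 2 genes of this list that lay lower than the median past the threshold. The other was the X-linked Kdm5c, at 0.10 (limma adjusted p = 0.71). Its Y-linked relative Kdm5d stood at -0.037 (limma adjusted p = 0.927), while the X-linked Kdm6a rose by 0.86 (limma adjusted p = 0.000728). In PGCs the smallest p of the list was that of Kdm5d, the Y-linked H3K4 demethylase, at -0.92 ± 0.51 (p = 0.0715) in the authors' deposited table.

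Of 12 genes of the LSD family and the CoREST complex in which Kdm1a acts, 9 rose and 0 fell in soma, beside the same 68.2% of all genes, and their median was 0.94. With residual degrees of freedom the count was 4 of 12, beside 32.1% of all genes and 61% of genes in that range. Hdac2, a deacetylase of that complex, rose by 1.64 ± 0.32 (limma adjusted p = 4.77e-06) in the authors' deposited table. Hmg20b, a DNA-binding subunit with a low average, rose there by 2.99 ± 0.78 (limma adjusted p = 0.00047). Zmym3 had the lowest value, 0.32 ± 0.32 (limma adjusted p = 0.36), in the authors' deposited table. In PGCs Phf21a, the CoREST subunit that reads unmethylated H3K4, had the smallest p, at -0.32 ± 0.44 (p = 0.465) in the authors' deposited table.

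Of 10 measured H3K9 methyltransferase genes and cofactors, which place the mark, 7 rose and 0 fell in soma, and their median was 0.79. Over all genes 68.2% rose, and 89.8% of genes with averages in the range of the 10 members, where the median average of this list, 5.25, lay. That count was 4 of 10 with residual degrees of freedom, beside 32.1% of all genes and 61% of genes in that range. Atf7ip, the partner of Setdb1, rose by 1.07 ± 0.25 (limma adjusted p = 8.96e-05) in the authors' deposited table. Ehmt2 (G9a), the main writer of H3K9me2, had the lowest value, 0.48 ± 0.31 (limma adjusted p = 0.157), in the authors' deposited table. Setdb1 had the smallest p of the list in PGCs, at -0.53 ± 0.49 (p = 0.285) in the authors' deposited table. Of 8 readers of methylated H3K9, 7 rose and 0 fell in soma, beside 68.2% of all genes and 89.8% of genes in that range. Their median was 1.10, and 5 of the 8 rose with residual degrees of freedom, beside 32.1% and 61%. Cbx3, an HP1 protein, rose by 1.70 ± 0.40 (limma adjusted p = 0.000109) and Cdyl2 by 1.18 ± 0.23 (limma adjusted p = 3.74e-06), while Cbx1, another HP1 protein, stood at 0.087 ± 0.30 (limma adjusted p = 0.791) in the authors' deposited table. Cbx1 also had the smallest p of the readers in PGCs, at -0.58 ± 0.49 (p = 0.236) in the authors' deposited table.

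**Figure D5:**
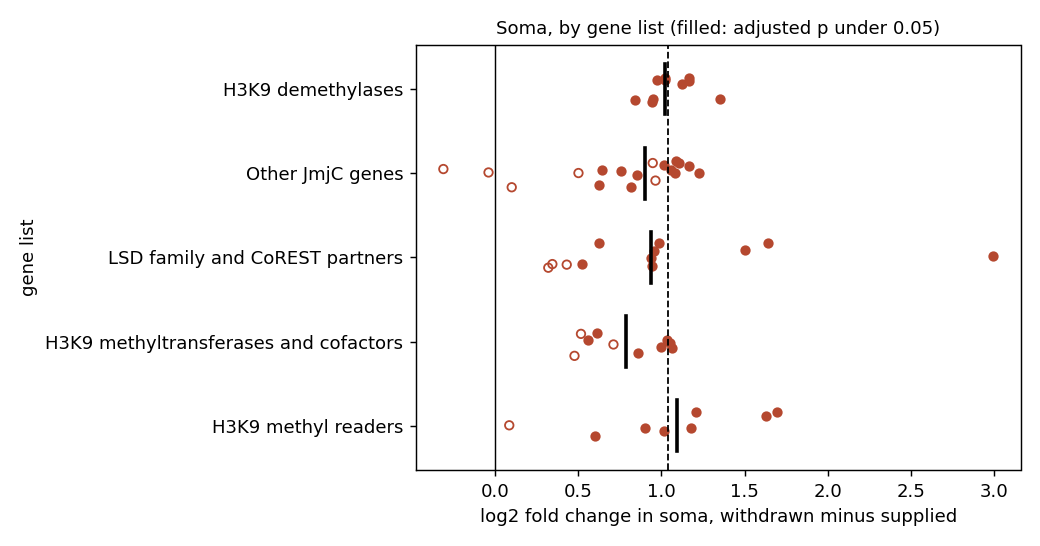
Log2 fold change in soma, withdrawn minus supplied (x axis), for the genes of 5 lists (y axis), from the authors' deposited table; filled points passed an adjusted p of 0.05, open points did not, bars are list medians and the dashed line is the median of all genes, 1.04. The 10 demethylase genes lie between 0.84 and 1.36, while the other JmjC genes reach down to -0.31 (Uty), the readers to 0.087 (Cbx1), and the LSD and CoREST genes up to 2.99 (Hmg20b).

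Marker genes of the sorted cells and of cells the gates could hold were read in the same way, as signal of the mark and not as expression, so they do not check the sort. In soma 6 of 10 PGC markers, 6 of 8 gonad soma markers, 3 of 3 endothelial and 3 of 3 blood markers rose in the authors' deposited table, beside 68.2% of all genes, and the list medians were 0.90, 0.78, 0.98 and 1.39. With residual degrees of freedom 4 of 10, 0 of 8, 2 of 3 and 2 of 3 rose, beside 32.1% of all genes. No gonad soma marker kept its call, with Wt1 and Nr5a1 just outside (t test recomputed with the limma SE, adjusted p = 0.051 for each). In PGCs 0 markers of the 4 lists passed, and 0 were at an unadjusted p under 0.05.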

How the data were processed

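Per the labels' protocols, CUT&RUN was run on 1000 sorted and cryopreserved cells per library, with 18 PCR cycles. Per the submitters' processing notes, Trim Galore 0.4.0, Bowtie2 2.2.5, Picard and the mm10 build were involved. The sources used here do not say how genes were counted, filtered or scaled. The authors' deposited tables of voom and limma hold for each gene a log2 fold change, an average in log2 CPM, a moderated t (a score), the p-value, its Benjamini-Hochberg adjustment and B (a natural log of odds). Statistics per library and the IgG libraries were not analysed here, and the repeat family tables were not used.

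Dividing the log2 fold change by t gave the SE. Centred tests subtracted the table's median and kept SE and degrees of freedom. The difference between soma and PGCs used the summed squared SE with Satterthwaite degrees of freedom. All tests were two-sided, adjusted over all genes of a table or over 26721 shared genes, at 0.05 (Python 3.11.15, SciPy 1.17.1). The centred and difference tests were run on data simulated from the same SE with independent genes. That run checks the calculation only, since it takes the SE and the independence as given. The named genes are the 10 members and, from each list, those with the smallest p in either table and the highest and lowest soma value. Neighbouring and sex-linked genes, Hr and Phf8 were named after their values were seen. Members and lists were chosen with earlier results of these data known. P-values rest on the spread between libraries, which the series calls biological replicates, pooled over all genes. An SE is therefore not the gene's own spread between libraries. A direction from fold change steps had been planned, and was read instead from how the SE of genes with averages under 4 depends on the number of libraries per side. Taking the side of 4 libraries as subtracted left a misfit of 0.283%, the reverse 3.96%. Library sizes are minima, from the steps that averages of whole reads can take. PCR reads are not independent molecules. Gene lengths were matched for 92.4% of soma and 92.7% of PGC genes.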

Additional observations from a re-analysis of the deposited data

How the results depend on the processing

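The 6 counts of members past a threshold were recomputed with residual degrees of freedom, with averages of at least 1 log2 CPM only, at an adjusted p under 0.01, with Benjamini-Yekutieli adjustment, relative to a running median over genes of like average and with the PGC sign turned. In soma the count of 10 was 9 with residual degrees of freedom and with the Benjamini-Yekutieli adjustment, and 10 with the filter on averages and at 0.01. The other 5 counts were 0 and stayed 0, which the stricter settings could not have changed, so these say nothing about stability. Relative to the median gene, the soma values of Kdm3a (-0.20), Kdm3b (-0.064), Kdm4c (-0.019), Kdm4d (-0.091), Phf2 (-0.095) and Kdm7a (-0.020) changed sign, as did Phf2 in PGCs (0.044), and none of these differed from the median past the threshold. Relative to the running median the sign changed in soma for Kdm3a (-0.18), Kdm3b (-0.031), Kdm4c (-0.011), Kdm4d (-0.064) and Phf2 (-0.063) and in PGCs for Kdm3b (0.012), Phf2 (0.065) and Kdm1a (4.73e-05), while Kdm7a stood at 0.010 in soma. With residual degrees of freedom the risen genes fell to 5 of 18 other JmjC genes, 4 of 12 LSD and CoREST genes, 4 of 10 methyltransferase genes and 0 of 8 gonad soma markers. The share that rose was then 32.1% of all genes and 61% of genes with averages in the range of the 10 members. No paired analysis was possible because the tables hold no values per library, and for the same reason no library was left out. The range of averages used for the 89.8% of soma genes and the promoter searches were chosen after seeing the data.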

Other observations

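Among the sex-linked JmjC genes, Kdm5c, an X-linked H3K4 demethylase, carried 1.18 CPM per kb in soma (percentile 95.6 of genes of 10 kb or more) and 2.31 in PGCs (percentile 98.0). Its Y-linked relative Kdm5d carried 0.239 in soma (percentile 2.68) and 0.498 in PGCs (percentile 24.9). Uty stood at percentile 7.75 in soma and 86.1 in PGCs, and Kdm6a at 70.7 and 76.3. These tables were scaled separately and no test between them was run.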
